A study of Mus musculus with 13 samples.

Results

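STAT3 binding in wild-type (WT) IgG1+ mouse B cells was compared between 1 h with IL-21 and 1 h with IL-4. The comparison used 4 peak lists, 2 for each cytokine, out of 12 lists from the 13 samples of the series. Peaks on chromosomes 1 to 19, X and Y that overlapped by at least 1 bp across the 4 lists were merged, which gave 3277 regions, against 11227 regions over all 12 lists. Naive splenic B cells of both arms had first spent 96 h in culture with IL-4 (12.5 ng/mL) and an antibody against CD40 (1 µg/mL), and IgG1+ cells were then sorted. Each library came from 400000 sorted cells that were then kept for 1 h with the CD40 antibody (1 µg/mL) plus either IL-21 (10 ng/mL) or IL-4 (12.5 ng/mL). All cells had thus seen IL-4 for 96 h. By the labels IL-4 was absent from the hour with IL-21, so the effect of IL-21 and that of withdrawing IL-4 cannot be told apart. The checks came from the STAT3 knockout (KO) IgG1 libraries, 1 with each cytokine, and from the WT IgM+ libraries, 2 with each. The age and sex of the mice, how the knockout was made, and whether replicates came from separate animals are not given in the labels, so p-values reflect no more than the spread of these libraries, which may be technical. Genotype and cell type were taken from the labels, since called peaks show neither the loss of STAT3 nor B cell markers.

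IL-21 is a cytokine of follicular helper T cells. It signals through its receptor and the common gamma chain to the kinases JAK1 and JAK3, which phosphorylate STAT3, and it drives germinal centre and plasma cell responses. IL-4 uses the common gamma chain as well, but acts mainly through STAT6. STAT dimers bind palindromes with the outer triplets TTC and GAA, and STAT3 is known to bind near the genes of its own feedback inhibitors, such as Socs3. Binding was measured by CUT&RUN with an anti-STAT3 antibody: a nuclease held by the antibody cuts DNA around the bound protein, and the fragments set free are sequenced.

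A region was called gained when both IL-21 libraries and neither IL-4 library had a peak there, and lost in the reverse case. With IL-21, 178 regions were gained (5.43% of the 3277), and 1 was lost (0.0305%). Most regions, 3026 or 92.3%, had a peak in a single library: 624 and 1237 in the first and second IL-21 library, and 589 and 576 in the first and second IL-4 library. Only 29 regions had a peak in both IL-4 libraries, of which 27 were present in all 4 lists. Single regions were not tested: 2 libraries against 2 allow 6 arrangements and an exact permutation p of at least 0.333, and most regions have a value in only 1 list. Each count rests on both libraries of its arm by definition: with only the second IL-21 library 1416 regions would be called gained and with only the first 806, and with only the second or the first IL-4 library 577 or 590 would be called lost.

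The gained regions at promoters often carried the STAT palindrome. RefSeq promoter windows (GRCm38.p6, 250 bases before to 50 after a start, 21237 windows of protein-coding genes) were searched for TTCNNNGAA, which is its own reverse complement, so both strands are covered. The best summit of 33 gained regions lay in such a window, and 15 of the 33 regions had a window with the pattern. Counted by window, 16 of 37 held it (43.2%, exact 95% interval 27.1 to 60.5%), against 7.69% of all windows. In windows that held the summit of a region found in 1 IL-21 library only, the share was 10.4% (20 of 193, 6.45 to 15.6%), and for regions of 1 IL-4 library only it was 9.09% (2 of 22, 1.12 to 29.2%). Regions with both IL-21 peaks and an IL-4 peak were close to the gained ones, at 42.9% (3 of 7, 9.90 to 81.6%). The same triplets with a spacer shorter by 1 base (TTCNNGAA) were found in 10.8% of the windows with a gained summit and 7.60% of all windows. With a spacer longer by 1 base (TTCNNNNGAA) the shares were 10.8% and 6.34%. GC content was 64.2% in the windows with a gained summit, 64.8% in those of 1 IL-21 library only and 56.2% in all windows. These intervals cover counting error only, windows are not replicates, and a match is a run of letters and not a measured site.

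The pattern was also unevenly spread over the gained promoters. All 10 of the regions with the best mean rank held it, against 5 of the other 23, a split at 10 that was chosen after the values were seen. The centre of the nearest match lay 35 to 185 bp from the best summit, with a median of 106 bp. Stretches around the match are shown for the 5 best-ranked promoters, because their peaks stand highest in the IL-21 lists, and for 3 lower-ranked ones with other spacer letters. Each runs 5′ to 3′ on the strand of the gene, is taken from RefSeq and ends before the start site, and the capitals mark the match.
Smc6 (chr12:11265788-11265846, plus strand): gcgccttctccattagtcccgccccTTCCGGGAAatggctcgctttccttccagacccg
Rabggta (chr14:55721934-55721992, minus strand): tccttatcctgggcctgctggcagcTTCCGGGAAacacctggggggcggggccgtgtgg
Ncf1 (chr5:134229680-134229738, minus strand): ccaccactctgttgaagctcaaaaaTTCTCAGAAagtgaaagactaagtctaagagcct
Icam1 (chr9:21015873-21015931, plus strand): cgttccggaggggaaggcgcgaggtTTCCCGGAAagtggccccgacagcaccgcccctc
Ripk1 (chr13:34002741-34002799, plus strand): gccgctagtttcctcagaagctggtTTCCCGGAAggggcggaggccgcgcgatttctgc
Irf1 (chr11:53769899-53769957, plus strand): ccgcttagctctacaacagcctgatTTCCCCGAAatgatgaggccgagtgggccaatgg
Gabarap (chr11:69991289-69991347, plus strand): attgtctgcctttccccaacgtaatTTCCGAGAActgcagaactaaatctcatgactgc
B4galt1 (chr4:40854050-40854108, minus strand): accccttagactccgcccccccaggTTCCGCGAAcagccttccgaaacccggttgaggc
Smc6 and Rabggta share the match TTCCGGGAA, and Icam1 and Ripk1 share TTCCCGGAA, which is its reverse complement. These promoters thus hold the same double-stranded sequence in opposite directions relative to the gene. Ripk1 holds that 9-base match 2 times in its window. The first base of the match lay 73 bases before the start at Smc6 and 88, 42 and 108 bases before it at Ncf1, Icam1 and Ripk1.

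**Figure D1:**
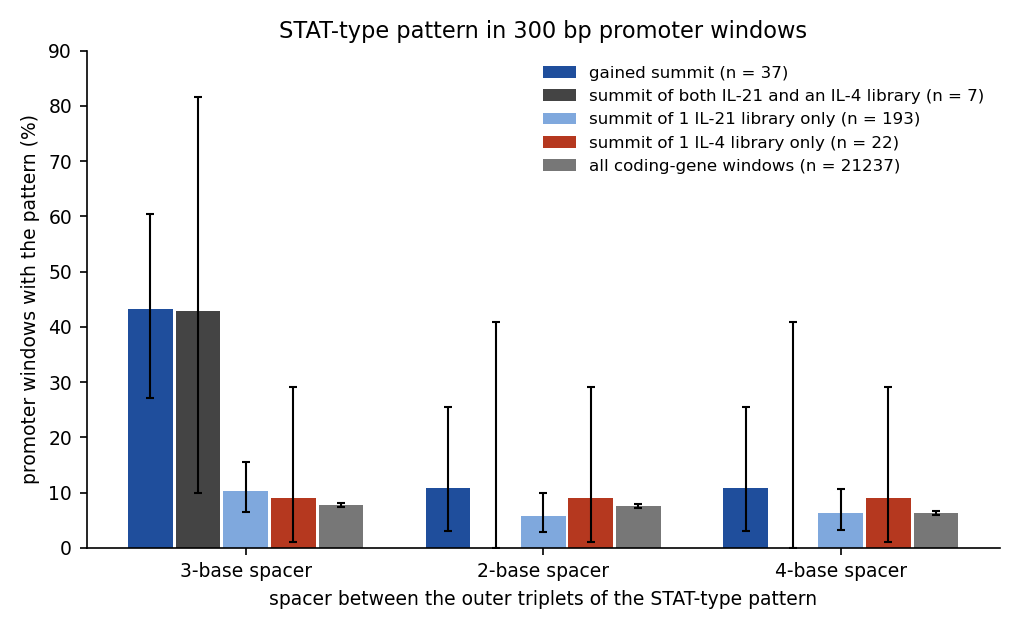
Share of 300 bp RefSeq promoter windows (y axis, percent) with the triplets TTC and GAA at a spacing of 3, 2 or 4 bases (x axis), for windows with a gained summit, with the summit of a region of both IL-21 and an IL-4 library or of a single library, and for all coding-gene windows. Bars are shares and lines are exact 95% intervals; with the 3-base spacer the gained windows stand at 43.2%, the 7 windows of both IL-21 and an IL-4 library at 42.9%, and the others at 7.69 to 10.4%.

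Peak by peak within each list, the same pattern occurred in 19.8% (20 of 101) and 20.0% (36 of 180) of the promoter windows holding a summit of the first and second IL-21 library. The IL-4 libraries gave 10.0% (3 of 30) and 33.3% (3 of 9). In the KO IgG1 libraries it was 0 of 45 with IL-21, for which the exact interval reaches 7.87%, and 9.24% (11 of 119) with IL-4. The IL-4 counts are too small to set the arms apart, since the interval of the second library runs from 7.49 to 70.1%. The WT IgM libraries gave 17.6% and 22.3% with IL-21 and 9.82% and 9.68% with IL-4.

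The largest gained peaks lay at genes of several functions, from kinases to membrane traffic. Heights are given as the fold enrichment over the local background, which is the authors' value for each peak and has no stated scaling between lists, and no change was read from it. At Gsk3a, the alpha form of glycogen synthase kinase 3, the fold was 18.1 in the first and 20.9 in the second IL-21 library (chromosome 7, 25237828 to 25238683, summit 474 bp before the start). The promoter shared by Gen1, a nuclease that resolves recombination junctions, and Smc6, a subunit of the SMC5/6 DNA repair complex, had folds of 14.2 and 22.6 (chromosome 12, 11265362 to 11266187). Rabggta, a subunit of the enzyme that attaches lipid anchors to Rab proteins, had folds of 16.7 and 17.6 (chromosome 14, 55721711 to 55722352). These regions had peaks in both WT IgM IL-21 libraries and in neither KO IgG1 library.

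Within 1000 bp of an end of their gene also lay the regions of Arf6, a small GTPase of membrane traffic (13.5 and 17.5), Ncf1, the p47 subunit of the phagocyte oxidase (12.1 and 17.1), and Elmo2, an engulfment adaptor (10.5 and 13.6). The region at Icam1, the adhesion molecule that binds LFA-1, was the second widest gained region, at 1751 bp, with folds of 10.5 and 24.6 (chromosome 9, 21015078 to 21016828). Akt2, a kinase downstream of PI3K, had 10.8 and 20.7, and Muc1, a membrane mucin, 9.07 and 15.4. Chkb, a choline kinase, had 11.3 and 12.6, Crtc2, a coactivator of CREB, 7.81 and 16.1, and Sar1a, a GTPase of vesicle export from the endoplasmic reticulum, 7.73 and 7.64. The start of Serpinb6a, a protease inhibitor, lies close to that of Ripk1, a kinase of death receptor signalling, and their region had folds of 8.82 and 11.6. Inside genes lay the regions of Il10, which encodes an immunoregulatory cytokine (11.8 and 13.9), Casp4, an inflammatory caspase (11.1 and 14.2), Zfp446 (8.93 and 13.6) and Phf6 (11.8 and 10.1).

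Farther from their nearest gene lay the regions of Stard3nl (22378 bp away, folds 11.9 and 14.3), Kcnj6, a potassium channel gene (20649 bp, 7.05 and 11.7), Azin1, an activator of polyamine synthesis (16652 bp, 8.83 and 10.6), Mllt6 (3017 bp, 11.7 and 13.3) and Med29, a Mediator subunit (2871 bp, 8.65 and 15.1). The Med29 region was the widest gained region, at 2448 bp (chromosome 7, 28380794 to 28383241), and its summit lay 3148 bp before the start of Zfp36. After Med29 and Icam1 the widest were those of Bcl3 (1586 bp), Cradd, a death domain adaptor (1512 bp), and Frmd8 (1463 bp). The third-ranked region of all, chr11:43358413-43359333, had no protein-coding gene within 50000 bp and folds of 14.1 and 24.0. All 25 regions of this ranking had a peak in both WT IgM IL-21 libraries, and the Casp4 region alone among them had one in a KO IgG1 library, that with IL-4. A WT IgM IL-4 peak was present at 8 of the 25, in both libraries at Icam1 and Stat3. Of all 178 gained regions, 66.9% had both WT IgM IL-21 peaks, 7.87% a KO IgG1 peak and 18.5% a WT IgM IL-4 peak. Over all 3277 regions these shares were 9.43%, 3.14% and 5.07%. The KO count among the 25 is near these shares and is not a result about these regions.

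**Figure D2:**
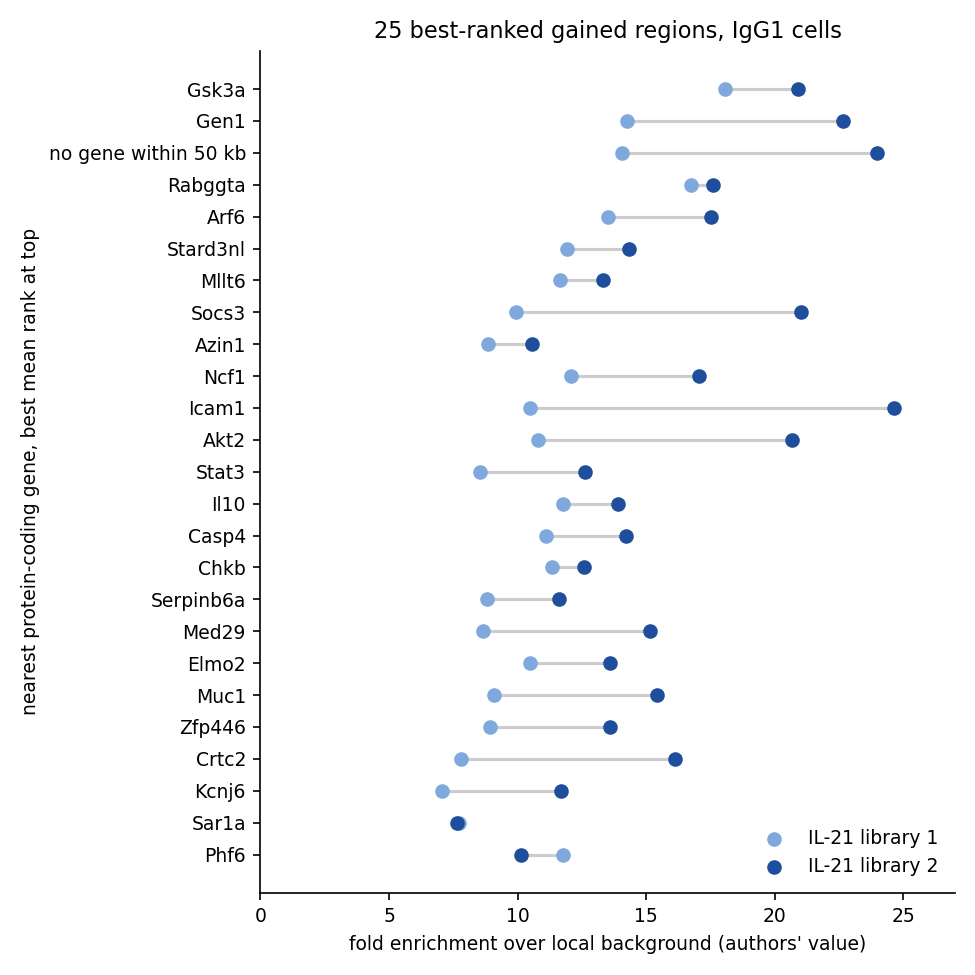
Fold enrichment (x axis, the authors' value) of the 25 gained regions with the best mean within-list rank (y axis, nearest protein-coding gene) in IL-21 library 1 (light) and library 2 (dark). The values run from 7.05 at Kcnj6 to 24.6 at Icam1, and neither IL-4 library had a peak at any of them.

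Over all 178 gained regions the fold ran from 1.54 to 18.1 in the first and from 1.51 to 24.6 in the second library, with medians of 5.67 and 7.81. The lowest pair belonged to a region 17136 bp from Mrgprd, with pileups of 587 and 596 fragments, which also had a peak in both KO IgG1 libraries. The number of fragments piled up at a summit could be recovered from its fold and p: the medians at gained regions were 21 and 29 fragments, against 14 and 15 at regions found in only the first or second IL-21 library. The gained peaks were 378.5 and 496 bp wide at the median, against 247 and 265 bp for regions of a single IL-21 library. In the IL-4 lists the smallest pileup called was 11 and 10 fragments, so a region without an IL-4 peak may still have held a lower signal. Of the gained regions, 32 were in the best-ranked 10% of both IL-21 lists by −log10 p.

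**Figure D3:**
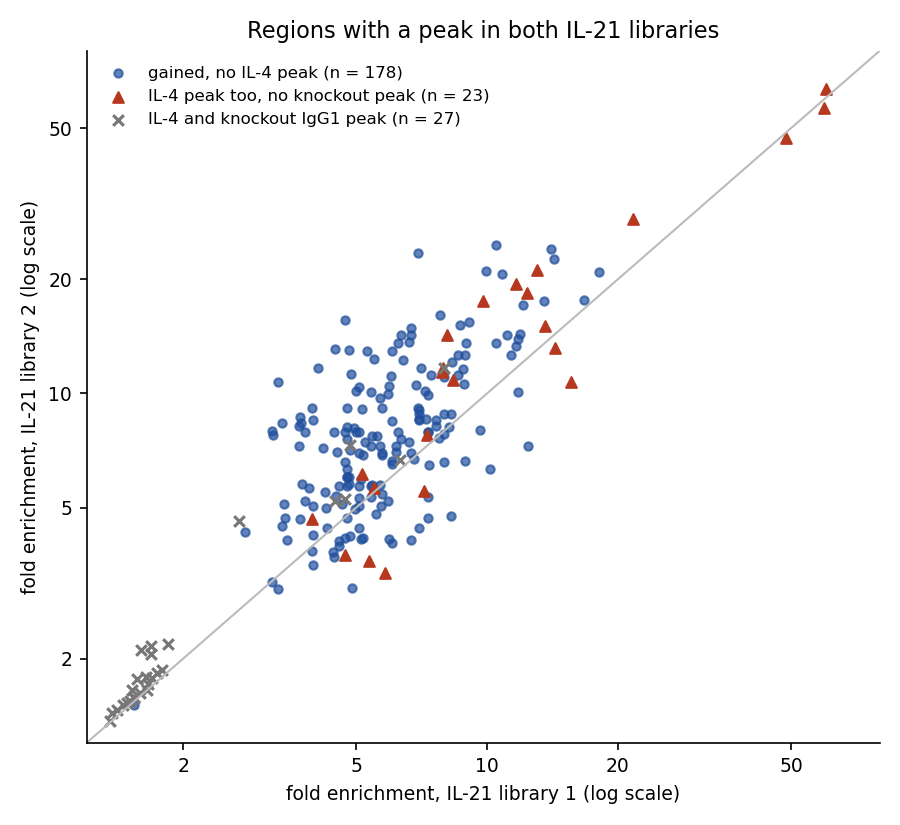
Fold enrichment in IL-21 library 1 (x axis) and library 2 (y axis), both on log scales, at the 228 regions with a peak in both. Circles are gained regions (178), triangles are regions with an IL-4 peak and no KO IgG1 peak (23), crosses have both (27), and the line marks equal values; most crosses lie near a fold of 2 or below and the 3 largest triangles between 47.1 and 63.3.

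Gained regions were found at genes of the feedback on cytokine signalling. Of the 19 feedback genes listed, 7 had any region and 3 had a gained one, namely Socs1, Socs3 and Ptpn1. As background, 6.87% of the 2299 genes with any region had a gained one, and 77.1% of the 205 genes whose regions included 1 of at least 2 libraries. All 3 of the feedback genes that reached 2 libraries had a gained region, which is near that second background and not a result about the list. The gene lists were drawn up with earlier results of these data known, and they are described by counts only. Counts in the lists below are likewise to be set beside the 77.1%, and none is a result about its list.

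Socs3, the inhibitor that shuts off JAK kinases downstream of STAT3, led all genes with 3 gained regions. These lay 5830, 16771 and 22674 bp beyond its start in the direction of transcription, that is, past the end of the gene. The middle region had folds of 9.92 and 21.0, the one nearest the gene 4.87 and 11.2, and the farthest 5.70 and 5.06. A further 4 regions near Socs3 were found only in the second IL-21 library, 1 of them over the start itself with a fold of 7.74. Within 60000 bp of the start, the IL-4 libraries and both KO IgG1 libraries had no peak, and the region at the start had a peak in both WT IgM IL-21 libraries (13.8 and 8.95).

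**Figure D4:**
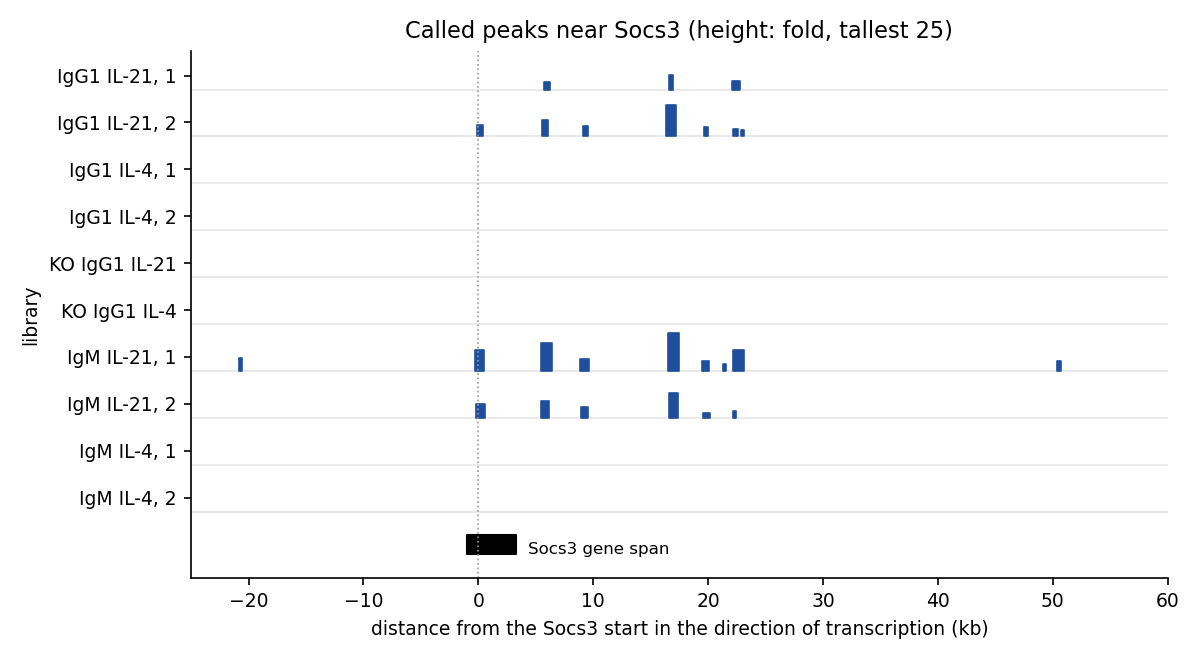
Called peaks around Socs3 in 10 libraries (rows), by distance from its start in kb (x axis); the height of a block is the authors' fold, the tallest being 25, and the black bar is the gene span. Blocks appear in the IL-21 rows of WT IgG1 and IgM cells, and no block in the rows of WT IL-4 or KO IgG1 libraries.

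Socs1, which inhibits JAK kinases directly, had a gained region 11402 bp away with folds of 5.91 and 5.20, and Ptpn1, a phosphatase of JAK kinases, had 2 gained regions, with folds of 5.48 and 12.3 inside the gene and 5.67 and 5.75 outside it. Cish, a further SOCS family gene, had 2 regions in the second IL-21 library only (folds 9.09 and 7.43), both also found in both WT IgM IL-21 libraries. Among the 7 STAT genes, Stat3 alone had a gained region, 351 bp before its start, with folds of 8.55 and 12.6 (chromosome 11, 100939450 to 100940116). This region had no peak in either KO IgG1 library, but had peaks in both IgM libraries given IL-4. Stat5b had 2 regions, each in a single IL-21 library. None of the 18 listed receptor and Janus kinase genes had a gained region. The region at the start of Jak3, the kinase bound to the common gamma chain, had folds of 9.78 and 17.5 with IL-21, but also a peak in the first IL-4 library (7.38).

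In the list of B cell identity and germinal centre genes, 16 of 32 had a region and 3 had a gained one. Bcl6, the repressor that defines germinal centre B cells, had folds of 6.67 and 14.9 at a summit 143 bp after its start (chromosome 16, 23988644 to 23988947). Ccr7, a chemokine receptor for T cell zones, had 8.90 and 12.6 at 11824 bp from the gene. Id3, an inhibitor of E proteins, had 5.14 and 5.93 next to its start, and was 1 of 12 gained regions with no peak in either WT IgM IL-21 library. In IgM cells it had peaks in both IL-4 libraries, the reverse of its pattern in IgG1 cells. In this list 11 genes had regions found in 1 IL-21 library only, Pax5 and Ms4a1 among them in the first library. Bach2 and Ebf1 alone had a region in an IL-4 library only, the second. Among all regions, 1861 were of 1 IL-21 library only and 1165 of 1 IL-4 library only.

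Of the 18 plasma cell and effector genes, 7 had a region and 2, Il10 and Batf, had a gained one. Batf, an AP-1 family factor needed for class switching, had folds of 4.45 and 3.72 at 228 bp before its start. A second region of Batf, inside the gene, had 8.09 and 14.2 and also an IL-4 peak (4.00). Prdm1, which encodes the plasma cell factor Blimp-1, had a single region, with a peak in the first IL-4 library only (fold 4.73). No region of the 4 lists had Irf4 or Myc as its nearest protein-coding gene within 50000 bp.

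The AP-1 and immediate early genes had a gained region at 4 of the 13 genes with any region: Zfp36, an mRNA decay factor (7.94 and 7.83), Klf10 (7.31 and 4.71), Jund (3.37 and 8.37) and Egr1 (3.37 and 4.46). Of the 13, 5 had a region of at least 2 libraries, and 4 of 5 is near the background of 77.1%. Of the 8 interferon and IRF genes with a region, 3 had a gained one. Only these 3 had a region of at least 2 libraries, which is again near that background. Irf1 had 2 gained regions, with folds of 6.61 and 13.6 at 6261 bp before its start and 5.19 and 4.16 at 211 bp before it. Irf9, a DNA-binding subunit of the interferon-activated complex ISGF3, had 4.63 and 5.10, and Plscr1 had 5.67 and 7.27. The PI3K list held Akt2 and Gsk3a, as above, among 8 genes with a region. In the NF-kB list, 1 of 6, Bcl3, had a gained region (5.01 and 10.2), and in the survival and cell cycle list 1 of 10, Mnt, a partner of MAX (5.59 and 7.73).

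Of the 15 IL-4 and STAT6 responsive genes, 5 had a region and 2 had a gained one, Socs1 and Batf, which also stand in lists above. Among the listed markers of other cell types, 0 of 12 myeloid and 0 of 15 T and NK cell genes had a region, where 10.5% of all protein-coding genes had one. Of 14 housekeeping genes, Ywhaz alone had regions, 2 in the first IL-21 library only. Besides Socs3, Ptpn1 and Irf1, the genes with 2 gained regions were Rabggta, Cic, Cradd, Fgd2 and Ppp1r16b.

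The best-ranked regions of the IL-21 libraries were not gained ones, since they also had peaks with IL-4. Places 1 to 5 of both IL-21 lists went to regions with IL-21 folds of only 1.51 to 1.87. These also had a peak in both KO IgG1 libraries, 1 with each cytokine, and whether STAT3 was bound there was not tested. Of 27 regions present in all 4 lists, 21 had a peak in a KO IgG1 library, and 12 lay at the start of chromosome 9 (3000918 to 3038262). At those 12 the fold was 1.36 to 1.87 in both IL-21 libraries and the first IL-4 library, but 2.38 to 5.48 in the second IL-4 library, which stood apart there. The other 6 had no KO IgG1 peak. At Thg1l, a tRNA-modifying enzyme, folds were 60.1 and 63.3 with IL-21 and 19.2 and 8.56 with IL-4. Lsm4, a component of the U6 snRNP, had 59.6 and 56.7 with IL-21 and 18.0 and 10.1 with IL-4. Lsm4 and Thg1l held places 6 and 7 of both IL-21 lists, and places 13 and 14 in the first and 37 and 51 in the second IL-4 list.

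At Crebrf the IL-21 folds were 12.4 and 18.4 and the IL-4 folds 3.67 and 6.26. The values lay closer together inside Jund, an AP-1 subunit (IL-21 folds 7.17 and 5.52, IL-4 folds 3.43 and 4.68), and at Kpnb1, an importin (IL-21 folds 3.96 and 4.67, IL-4 folds 4.17 and 4.63). The last, chr12:97061443-97061785, had no gene within 50000 bp and no peak in any WT IgM library. Of the regions with both IL-21 peaks and 1 IL-4 peak, 19 had it in the first and 4 in the second IL-4 library. Among the 19, Slc39a1, a zinc transporter, had folds of 48.6 and 47.1 with IL-21 and 6.30 with IL-4. Lmna, the gene of lamin A, had 21.6 and 28.8 in the IL-21 libraries and 6.93 in the first IL-4 library. Gadd45b, a stress response gene, had 8.33, 10.9 and 7.13 in the same libraries.

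Over the 27 regions of all 4 lists, the mean percentile rank (0 is the top of a list) was 7.55 and 5.01 with IL-21 and 8.48 and 5.11 with IL-4. The arms overlapped, and the exact two-sided permutation test gave p = 0.667. The direction of this difference of −0.51 percentile points changed with the processing, and no order of the arms can be read from it.

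The single lost region lay inside Myo3a, an unconventional myosin (chromosome 2, 22587767 to 22588083). Its folds were 6.0 and 4.27 with IL-4, with pileups of 23 and 14 fragments, at places 34 and 389 of their lists. It had no peak in any KO IgG1 or WT IgM library, and no region was lost once a −log10 q of 5 or more was required.

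Most gained regions recurred in IgM cells, and few had a peak in knockout cells, though a larger share than of all regions. Of the 178, 166 (93.3%, exact 95% interval 88.5 to 96.5%) had a peak in at least 1 WT IgM IL-21 library, and 119 (66.9%) in both. A WT IgM IL-4 peak was present at 33 (18.5%, 13.1 to 25.04%), against 5.07% of all 3277 regions, 3.60% of those of 1 IL-21 library only and 1.29% of those of 1 IL-4 library only. Of the 50 regions with both IL-21 peaks and an IL-4 peak, 49 (98%) had a WT IgM IL-21 peak. For regions of 1 IL-21 library only, 19.5% had a WT IgM IL-21 peak, and for regions of 1 IL-4 library only, 2.15%. Between the IL-21 libraries these shares differed: 25.8% of the regions of only the second and 7.05% of those of only the first recurred. Median pileups were 14 and 15 fragments at the regions of only the first or second IL-21 library, and 21 and 29 at gained regions. Pileups were not compared by recurrence, and the part of peak height in these shares was not tested.

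A peak in a KO IgG1 library was found at 14 gained regions (7.87%, 4.37 to 12.8%), 13 with IL-4 and 4 with IL-21. Among all 3277 regions the share was 3.14%, and among regions of 1 IL-21 library only 2.26%. Besides Casp4 and Mrgprd these included Cic, Dennd4b, Ap3m1, Ell and H2-DMb2. The share was 2.52% (3 of 119) when a −log10 q of 5 or more was required and 4.03% (6 of 149) at a fold of at least 4. The KO IL-4 list was the longest of the IgG1 lists, with 1892 peaks, and the KO IL-21 list held 648.

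Gained regions lay near gene starts in a larger share than regions of a single library. A summit within 1000 bp of a RefSeq start was found for 39.9% of them (71 of 178, 32.6 to 47.5%), against 20.6% (18.8 to 22.5%) of the regions of 1 IL-21 library only and 6.09% (4.79 to 7.63%) of those of 1 IL-4 library only. The 50 regions with both IL-21 peaks and an IL-4 peak stood at 34% (21.2 to 48.8%), an interval that overlaps that of the gained regions. Starts were known for 79.9% of the protein-coding genes, so these shares are lower bounds. No coding gene lay within 50000 bp of 6.18% of the gained regions, and of 15.4% and 25.7% of the single-library ones. Within 1000 bp of either gene end were 44.4% of the gained regions (37.0 to 52.0%).

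**Figure D5:**
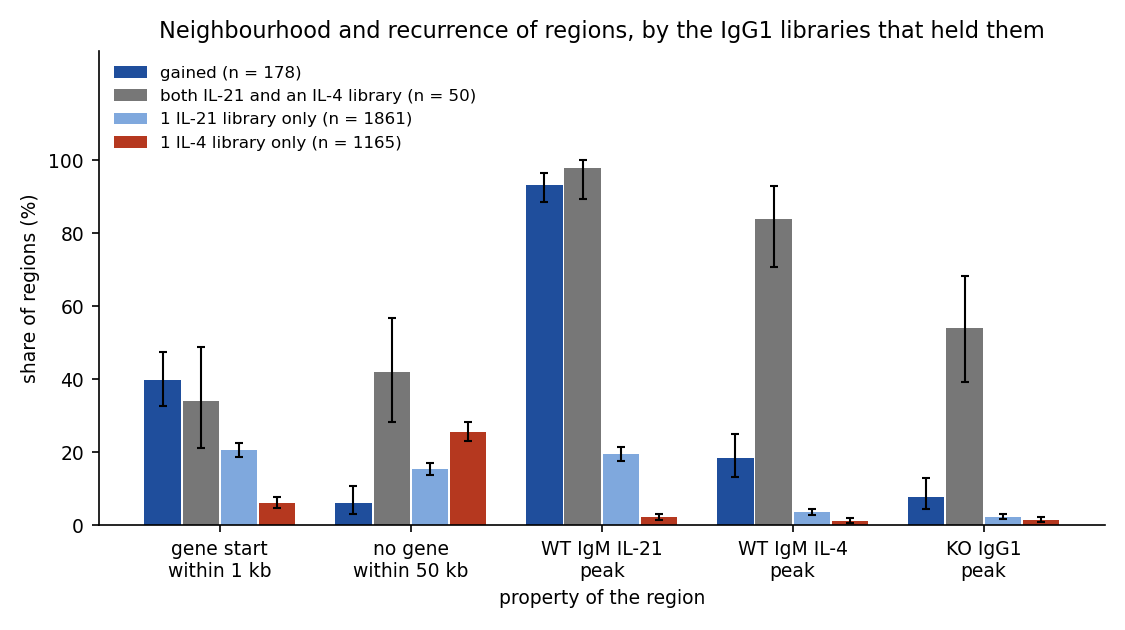
Share of regions (y axis, percent) with each property (x axis) for the 178 gained regions, the 50 of both IL-21 and an IL-4 library, the 1861 regions of 1 IL-21 library only and the 1165 of 1 IL-4 library only; lines are exact 95% intervals. The gained regions stand at 39.9% near a start and 93.3% with a WT IgM IL-21 peak, those of both IL-21 and an IL-4 library at 34% and 98%, and regions of 1 IL-4 library at 6.09% and 2.15%.

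The same difference in neighbourhood was seen over whole lists. Peaks with a summit within 1000 bp of a gene end made up 25.1% and 29.4% of the IL-21 lists and 14.0% and 8.35% of the IL-4 lists, without overlap. The mean difference between these WT IgG1 arms was 16.1 percentage points, and within 1000 bp of a start it was 15.4 points. The KO IgG1 lists had 16.5% near a gene end with IL-21 and 11.8% with IL-4. The WT IgM lists had 31.5% and 26.2% with IL-21 and 19.9% and 17.1% with IL-4. In KO IgM cells the share was 16.7% with IL-21 and 35.4% with IL-4, the highest of the 12 lists. A high share was thus not particular to WT cells with IL-21. The lists themselves held 865 and 1485 peaks with IL-21 and 651 and 623 with IL-4, a 1.78-fold ratio of geometric means (0.83 on the log2 scale, 1.68 when a −log10 q of 5 or more was required, and 1.22 or 0.44 without the first or the second IL-21 library). Median peak width was 260 and 280 bp with IL-21 and 259 and 242 bp with IL-4, a difference of 19.5 bp that became 67.8 bp under that same q threshold and 61.5 bp with lists of equal length, but 9.5 bp without the second IL-21 library and 11 bp without the second IL-4 library. Each of these 4 differences had an exact two-sided permutation p of 0.333, the smallest that 2 against 2 allow (0.417 after Benjamini-Hochberg adjustment over 5 measures). Depth is unknown for these lists, and the lowest local background was 2.15 and 2.16 fragments in the IL-21 lists and 2.17 and 1.72 in the IL-4 lists.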

How the data were processed

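Each library has its own deposited narrowPeak list on mm10. The tools in the submitters' processing notes are MACS2 2.2.7.1, Bowtie2 2.4.1, deepTools 3.5.1 and Trimmomatic 0.39, with no roles. How peaks were controlled and whether the 1 pg of yeast spike-in was used is not given in the sources used here. For each peak the authors deposited a summit, a ratio to the local background (fold enrichment), −log10 values of p and q, and a score that is 10 × −log10 p without decimals for at least 99.4% of peaks. The input sample was not analysed here. From 31 to 33 peaks per list off chromosomes 1 to 19, X and Y were left out.

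Lists were merged with pandas 2.3.3 (Python 3.11.15, scipy 1.17.1). Pileups were solved from fold and −log10 p under a Poisson model, and came out whole to within 0.001 (plus rounding) for at least 99.8% of peaks with a −log10 p under 200 in these 4 lists. The gene of a region is the nearest protein-coding span (RefSeq, GRCm38.p6, no exons) within 50000 bp of the best summit. Shares have exact 95% Clopper-Pearson intervals. Named were the 25 gained regions with the best mean percentile rank, the 5 widest, all lost regions, regions of all 4 lists without a KO IgG1 peak, genes with 2 or more gained regions, listed genes with a gained region, and Prdm1, Irf4, Stat3 and Myc; some items are not reported here. Other names were chosen after their values were seen. Members and gene lists were chosen with earlier results of these data known. Merging, pileup recovery and the permutation test were checked on simulated lists. No gained region was tested singly.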

Additional observations from a re-analysis of the deposited data

How the results depend on the processing

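All 25 best-ranked gained regions were gained under each threshold and overlap rule tried. They were chosen for high −log10 p in both IL-21 lists, so the thresholds had little room to remove them. Leaving out a library only drops a condition of the call, so there they stayed gained by definition. The count of 178 was 119 at a −log10 q of at least 5, 149 at a fold of at least 4, 135 with 623 peaks from each list and 153 with summits within 250 bp, and 183 to 1416 without 1 library. The lost count was 0 at that q and 1 to 590 without 1 library. The difference in mean percentile (−0.51, over 27 regions) turned to 3.39 at a fold of at least 4, where 4 such regions were left. It was 1.39 with equal lists (26 regions), 3.10 with summits within 250 bp (19 regions) and 4.09 when ranked by fold (27 regions). Without 1 library it ran from −2.17 to 0.57, the value of 0.57 being without the second IL-21 library. The cause was not tested. Gained regions with a KO IgG1 peak made up 2.52% at that q, 4.03% at that fold and 2.90 to 9.29% without 1 library. Alternatives for the share with a WT IgM IL-21 peak and for the TTCNNNGAA share were chosen after seeing the data: without 1 library these were 26.4 to 93.9% and 18.5 to 44.7%, the low values being those in which 1 IL-21 library alone defined a gained region. Within 10000 bp instead of 50000, 18 of 20 listed genes had a gained region. Libraries shared replicate numbers, but whether these numbers pair them could not be decided. The deviations of same-numbered libraries gave r = 0.0086 over 3277 regions, of which 92.3% had a peak in a single library. Such a region deviates in 1 arm only, which keeps r small whichever way the libraries pair. With the replicate as a block, the differences in peaks per library (0.83, log2), width (19.5 bp) and share near a gene end (16.1 points) had an exact p of 0.5, the smallest that 2 pairs allow. No adjusted call existed to be lost. Depth is unknown, and pileups of under 10 fragments were not called in any list used.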

Other observations

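Some gained regions lay far from any protein-coding gene. Of the 11 with none within 50000 bp, 2 lay inside Pvt1, a long non-coding RNA gene. The nearest coding gene of these 2 was Myc, a transcription factor gene, at 179348 and 191256 bp. Their folds were 7.94 and 11.1 at the first (chr15:62169213-62170339) and 8.18 and 8.14 at the second (chr15:62181243-62181715). Another lay 87536 bp from Ccnd2, which encodes cyclin D2 (7.63 and 8.53), and 1 lay 188565 bp from Cdk6, a cyclin D-dependent kinase (7.63 and 8.22). Near Gadd45g, a stress response gene, lay 2 more, at 87941 and 235662 bp. A region inside Vmp1 lay 2864 bp from Mir21a, a microRNA gene (4.19 and 7.19), and the region 6261 bp from Irf1 lay 99 bp from Mir7671. Distance alone does not assign a region to a gene.

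Many regions of the second IL-21 library missed the gained call only because the first library had no peak there. The 10 with the highest −log10 p were chosen by rank within that list, and their nearest genes included Dusp1, a phosphatase of MAP kinases (fold 10.4), Pik3cd, the PI3K subunit p110 delta (10.9), Man1a (12.4), Cnksr3 (12), Cd209a (6.08) and Cish (9.09). Of the 10, 8 had a peak in both WT IgM IL-21 libraries, these 6 among them, and 0 had one in a KO IgG1 library. Among all 1237 regions of the second IL-21 library only, 10.1% had both IgM peaks and 2.18% a KO IgG1 peak. The KO count of 0 of 10 is near that share and is not a result about these regions. Amn1 (9.47) had a peak in 1 WT IgM IL-21 library, and Serpina3g (9.51) in neither. The counterpart in the first library was led by chrX:128363560-128363781 (13.3), and regions at Rbpms (9.21) and Rab27a (7.55) followed. Of the 10 highest there, 9 had no WT IgM IL-21 peak and 1, at Rhbdf2 (6.52), had a peak in 1 such library. Among all 624 regions of the first IL-21 library only, 7.05% had such a peak. Which of these single-library regions would recur in further IgG1 libraries was not tested.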
